A study of Solanum lycopersicum with 36 samples.

Results

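Roots of the tomato CRISPR mutant *sdg33* were compared with wild-type (WT) roots when both were supplied with N (+N). The comparison rests on 6 of the 36 RNA-Seq libraries of the study, the 3 *sdg33* and the 3 WT root libraries at +N, read across all genes of the root table. All plants were cultivar Castlemart II, and *sdg33* is represented by 1 edited line. Plants grew hydroponically for 2 weeks, went without N for 2 days, and then received +N medium (1.2 mM KNO3, 0.8 mM Ca(NO3)2 and 0.2 mM NH4H2PO4) for 5 h. The other groups used here are roots of both genotypes kept without N (-N) for the same 5 h, +N roots of the second mutant, *sdg34*, and +N shoots of *sdg33* and WT, each with 3 libraries. RNA of 3 plants was pooled for every library. The -N and starvation media held sulfate and phosphate salts in place of the N salts, so that they carried more sulfate than the +N medium. Plants stood 2 to a container, aerated for 1 h daily, and the sources do not say which genotype stood in which container, so a genotype cannot be told apart from its containers.

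SDG33 and SDG34 are homologs of Arabidopsis SDG8, a methyltransferase that marks histone H3 at lysine residues, K36 above all, in the body of transcribed genes. Such marks accompany active transcription, and in Arabidopsis SDG8 is known for roles in flowering time, branching, defence and the response to N. Roots take up nitrate, reduce it to ammonium and build it into amino acids, and they likewise reduce sulfate to sulfide for cysteine. Roots in still water also meet low oxygen, to which plants respond with fermentation enzymes, a hemoglobin and a small set of transcription factors and cysteine oxidases.

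Values are normalized counts, and differences are given as log2(*sdg33*/WT) on the log2(value + 1) scale, where 1 is a factor of 2 and the fold of a low gene is understated. All libraries hold the same set of values, assigned by rank, so depth is unknown and the precision comes from the replicates alone. Between replicates, Pearson's r across genes was 0.984 to 0.987 in WT and 0.987 in *sdg33*, and the median SD of a gene on the log2 scale was 0.130 and 0.140. The p-values measure the spread between pools of plants grown in one experiment.

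*SDG33* itself (*Solyc04g057880.3*) had 446, 442 and 392 normalized counts in the WT libraries and 348, 359 and 319 in the *sdg33* libraries. The groups did not overlap, and the transcript was still present in the mutant at a level slightly under that of WT. The difference was -0.32 (SE 0.10, adjusted p = 0.0144), and the call was lost without WT replicate 1 (adjusted p = 0.0535), WT replicate 2 (0.0511) or *sdg33* replicate 3 (0.0591). An edit need not remove the transcript, so this level does not check the line. *SDG34* (*Solyc06g059960.3*), the intact paralog, had 160, 130 and 143 in WT and 175, 176 and 204 in *sdg33*, a difference of 0.36 (adjusted p = 0.0355) that lost its call when all 18 root libraries were fitted (adjusted p = 0.205) and without WT replicate 2 (0.127), WT replicate 3 (0.0801), *sdg33* replicate 2 (0.0522) or *sdg33* replicate 3 (0.131).

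The labelled organ was checked with 6 photosystem and light-harvesting genes. Their summed normalized count was 243 to 343 in WT roots, 512 to 626 in *sdg33* roots and 50312 to 97908 in shoots, and between 1 and 3 of the 6 were at 0 in each of these root libraries. The 4 of them outside chromosome 1 summed to only 4 to 18 in the WT and *sdg33* +N roots. Of the other pair, the light-harvesting gene *Solyc01g105050.3* had means of 209 in WT and 184 in *sdg33* roots (adjusted p = 0.424). The higher sum in *sdg33* came with the PsbP-like *Solyc01g087040.2*, at 57, 63 and 64 in WT and 308, 341 and 438 in *sdg33*.

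Across the root transcriptome, *sdg33* and WT differed by small amounts in many genes and by large amounts in a minority. Of 20391 genes tested, 4347 (21.3%) were higher and 5128 (25.1%) were lower in *sdg33* at an adjusted p under 0.05, or 46.5% in all. The median difference was -0.03, and 17448 genes (85.6%) stayed within 1 of no difference. Differentially expressed genes (DEGs), with an adjusted p under 0.05 and a difference of at least 2, numbered 449 up (2.2%) and 208 down (1.02%), together 657 (3.22%). The median DEG rose by 2.70 or fell by 2.42. In 445 of the up-regulated and 207 of the down-regulated DEGs the 2 groups did not overlap, as was so in 26.6% (higher) and 30.6% (lower) of all genes tested. In 92 of the up-regulated DEGs all WT libraries were under 10, and in 58 of the down-regulated DEGs all *sdg33* libraries were under 10, where the size of the difference depends on the pseudocount. Fewer cells of a type and less RNA per cell cannot be told apart in these whole-root values.

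**Figure D1:**
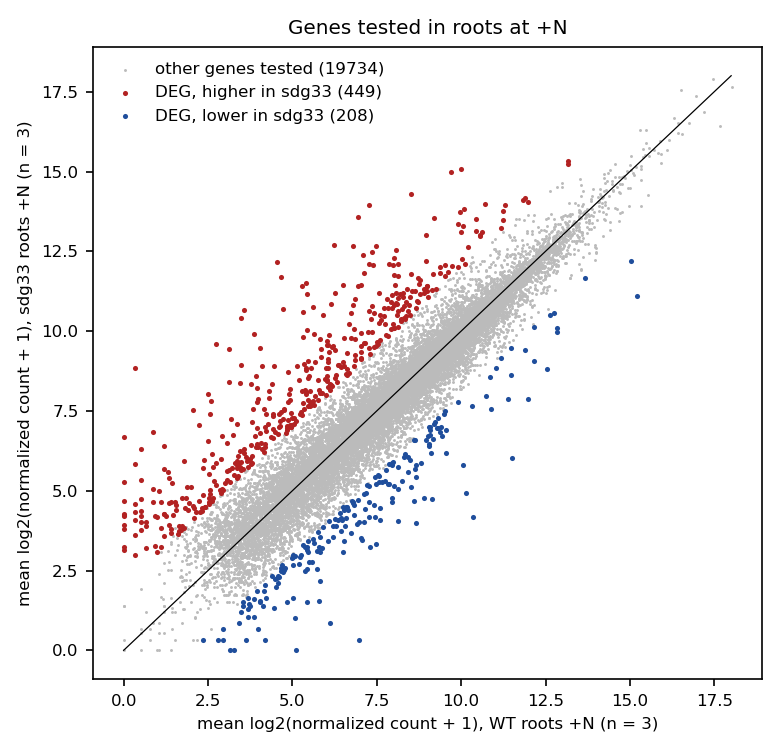
Mean log2(normalized count + 1) of each of the 20391 genes tested in WT (horizontal axis) and *sdg33* (vertical axis) roots at +N, 3 libraries each. The 449 up-regulated and 208 down-regulated DEGs lie above and below the diagonal, around which most genes fall.

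Among the gene lists, homologs of low-oxygen response genes had the highest median difference. Of the 25 genes of this list, 21 rose and 0 fell (against 21.3% and 25.1% of all genes), 19 of them as DEGs, with a median of 3.60 against -0.03 over all genes. At an unadjusted p under 0.05 in limma, too, 0 fell. The study's own list of up-regulated root genes, chosen on these libraries, supplied 15 of the 25, which is no independent evidence of their direction. Of the other 10, 6 rose and 0 fell, with a median of 1.20. Several of these genes are known to respond to other signals as well, and the tables hold no measurement of oxygen.

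The oxygen-sensing arm of the list held its largest rise. Its genes named here came from the study's up-regulated root list, chosen on these libraries, so their direction is no independent evidence. Plant cysteine oxidases use oxygen to mark certain ethylene response factors for breakdown, and in Arabidopsis their genes are themselves induced when oxygen falls. The cysteine oxidase homolog *Solyc03g113130.3* (described as a 2-aminoethanethiol dioxygenase) had 19, 31 and 24 normalized counts in WT and 3622, 3202 and 3047 in *sdg33*. It was low in each WT library and high in each mutant library, a difference of 7.03 (SE 0.21, adjusted p = 6.89e-11). Its relative *Solyc02g087740.3* went from 221, 252 and 293 to 4198, 4646 and 4176 (4.09, SE 0.19). *Solyc02g067440.3*, described as a nematode giant-cell protein but with the same closest Arabidopsis gene, went from 448, 340 and 324 to 20076, 24078 and 17033 (5.78, SE 0.38). For all 3 genes the lowest mutant library was over 10 times the highest WT library.

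Among the regulators, the ethylene response factor *Solyc09g075420.3*, whose closest Arabidopsis gene is *HRE2*, a factor of the hypoxia response, had 588, 516 and 663 in WT and 11797, 11868 and 11940 in *sdg33*. Its mutant libraries were nearly level with each other, and the difference was 4.34 (SE 0.16, adjusted p = 3.03e-10). A pair of LOB domain factor genes related to Arabidopsis *LBD41* also rose. *Solyc03g119530.3* had 752, 1057 and 1582 in WT and 13705, 17142 and 13419 in *sdg33* (3.76, SE 0.31). *Solyc02g085910.3* had 79, 167 and 273 against 4196, 5450 and 3748 (4.84, SE 0.58), with a wide spread between the WT libraries. The calmodulin-like gene *Solyc11g071740.2*, from a family of calcium sensors, had 8, 17 and 18 against 974, 1094 and 835 (6.05, SE 0.44). These regulators and the calmodulin-like gene were likewise all on the study's up-regulated root list.

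The metabolic members rose unevenly. Of these, the genes named next were on the study's up-regulated root list. *Solyc07g026650.3* encodes a 1-aminocyclopropane-1-carboxylate oxidase, the enzyme of the last step of ethylene synthesis, and had 1090, 724 and 710 in WT against 33706, 35724 and 29041 in *sdg33*. The groups lay far apart, with a difference of 5.31 (SE 0.25, adjusted p = 2.75e-09). The non-symbiotic hemoglobin gene *Solyc07g008240.3*, whose Arabidopsis relative scavenges nitric oxide, had 9198, 8956 and 9330 against 39889, 38944 and 37682 (2.08, SE 0.32, adjusted p = 1.38e-04). Lactate dehydrogenase, which turns pyruvate into lactate, had 504, 472 and 503 against 4132, 6454 and 3794 for *Solyc08g078850.3* (3.24, SE 0.19, adjusted p = 1.81e-08).

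The listed genes of the ethanol branch of fermentation did not pass the test. They came from the study's shoot lists, so other genes for these enzymes were not looked at, and the branch as a whole is not judged. Pyruvate decarboxylase, its first enzyme, had 51448, 39889 and 46664 for *Solyc02g077240.3* in WT against 74198, 102024 and 69104 in *sdg33*. The groups did not overlap, but the difference of 0.82 (SE 0.47) had an adjusted p of 0.17, since the fit also took in a wide spread at -N (0.00273 in a fit of the 6 +N libraries alone). The alcohol dehydrogenase genes on the list, its second enzyme, had means of 17 and 24.7 for *Solyc05g021555.1* (0.38, adjusted p = 0.471, but 0.91 and 0.0445 without *sdg33* replicate 3) and 5.67 and 6.33 for *Solyc05g021570.2* (0.16, adjusted p = 0.832). The remaining called members ranged from *Solyc04g081890.1*, a RING/U-box gene at 0.70, to *Solyc02g090120.1* at 5.29, and included *Solyc04g080540.2*, at 1186, 928 and 976 in WT and 33188, 35396 and 34121 in *sdg33* (5.06, SE 0.13). Both *Solyc02g090120.1* and *Solyc04g080540.2* were on the study's up-regulated root list, and *Solyc04g081890.1* was not.

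**Figure D2:**
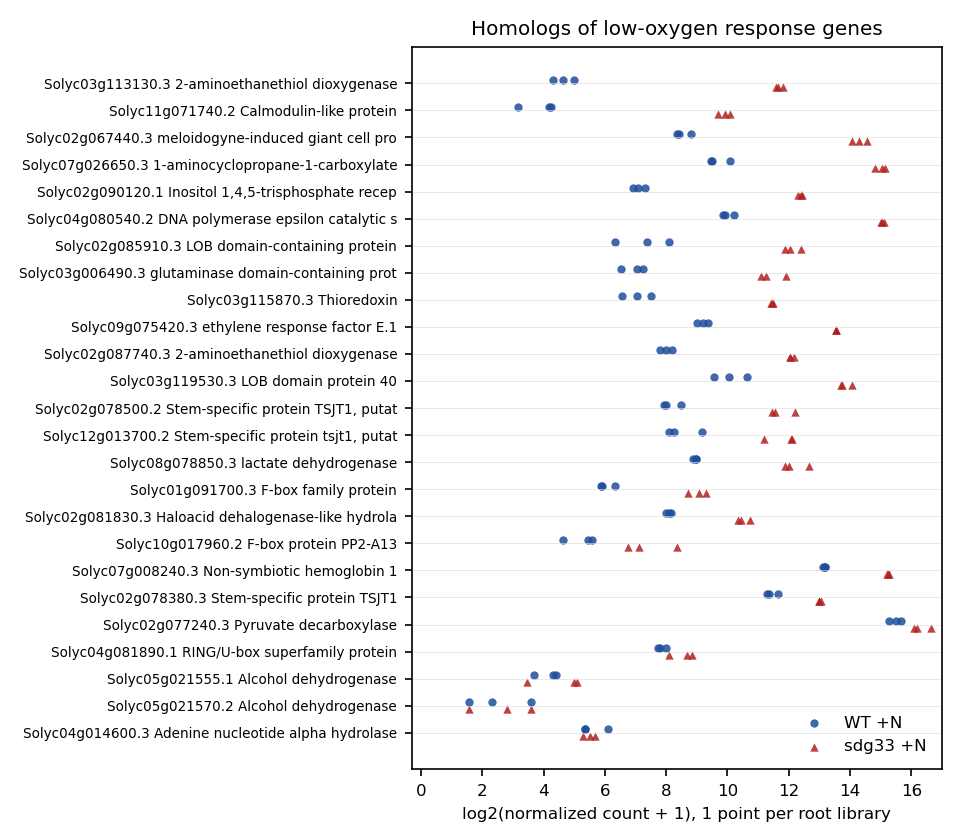
The 25 genes of the low-oxygen list (rows, ordered by their difference) with log2(normalized count + 1) on the horizontal axis, where each circle is 1 of 3 WT and each triangle 1 of 3 *sdg33* root libraries at +N. The cysteine oxidase homolog *Solyc03g113130.3* at the top has its groups farthest apart (19 to 31 against 3047 to 3622 normalized counts), and the groups of the alcohol dehydrogenases near the bottom overlap.

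Sulfate assimilation moved the other way. Of 8 listed genes 7 were tested, and 0 rose (also 0 at an unadjusted p under 0.05 in limma) while 5 fell, all as DEGs (1.02% of all genes), with a median of -3.71 over the 7. None of the 8 came from the study's root list, but that list held up-regulated genes only, so a fall could not place a gene there. All 8 came from the study's lists of genes called in shoots of the mutants. The 3 tested adenylylsulfate reductases, which catalyse the committed step of sulfate reduction, fell by closely similar amounts. *Solyc02g080640.3* had 34712, 37682 and 42541 normalized counts in WT and 2190, 2414 and 2006 in *sdg33*, a difference of -4.12 (SE 0.19, adjusted p = 2.65e-09). *Solyc02g032860.3* had 3755, 4174 and 4244 against 236, 216 and 254 (-4.10, SE 0.19). *Solyc03g031620.3* had 5854, 5945 and 6014 against 456, 520 and 392 (-3.71, SE 0.21). No WT library of these 3 genes came near a mutant library. How the authors' counting treated reads shared between such related genes is not given in the sources used here.

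A gene described as a response to low sulfur protein, *Solyc03g096770.1*, fell the most on the list, from 1140, 1408 and 1344 to 18, 14 and 20 (-6.15, SE 0.17, adjusted p = 2.28e-11). In Arabidopsis, genes of this name are induced when sulfur is short. The second gene with this description, *Solyc06g072990.1*, was low throughout, at 13, 20 and 21 against 2, 1 and 4 (-2.58, SE 0.47). The 2 tested sulfate transporter genes did not pass, with means of 484 and 475 for *Solyc12g056920.2* (-0.02, SE 0.11) and 56.3 and 70.3 for *Solyc09g082550.3* (0.37, SE 0.46). The changes lay in the reduction and low-sulfur genes, and none was detectable in these transporter genes.

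Nitrogen genes moved in both directions. Of 15 listed genes, 12 were tested, of which 8 rose, 4 as DEGs, and 2 fell, with a median of 1.14 (against 21.3% higher, 2.2% as DEGs, and 25.1% lower over all genes). The study's root list held 3 of the 15, and without them 5 of 9 rose and 2 fell. Nitrate reductase (*Solyc11g013810.2*), which starts nitrate assimilation, had 24078, 21600 and 27322 in WT and 36556, 40978 and 37498 in *sdg33*, a rise of 0.66 (SE 0.13, adjusted p = 8.76e-04) with no overlap. The putative high affinity nitrate transporter *Solyc06g074990.2* had 37498, 38944 and 47455 against 13379, 19084 and 14656, and fell by 1.40 (SE 0.28, adjusted p = 9.17e-04). These 2 genes shifted in opposite directions at +N. *NRT1.1* (*Solyc08g078950.3*), a nitrate transporter that also senses nitrate in Arabidopsis, had 8046, 8266 and 8592 against 10525, 9041 and 9012 and did not pass (0.20, SE 0.10, adjusted p = 0.111).

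Of the nitrogen genes taken from the study's up-regulated root list, whose rise in these libraries put them there, all 3 act in amino acid metabolism. The adjacent aspartate aminotransferase genes among them, which move amino groups between glutamate and aspartate, were higher in the mutant. *Solyc10g075170.2* had 47, 56 and 68 in WT and 734, 859 and 540 in *sdg33* (3.61, SE 0.24). *Solyc10g075175.1* had 77, 48 and 83 against 930, 1244 and 720 (3.78, SE 0.22), and as neighbours of like description the pair may share reads and count as less than 2 independent genes. Proline dehydrogenase (*Solyc02g089630.3*), the first enzyme of proline breakdown and the third of these genes, had means of 18 and 105 (2.81, SE 0.50). Outside the root list, an amino acid transporter gene, *Solyc03g013440.3*, rose from a mean of 15.3 to 228 (3.84, SE 0.39). Glutamate decarboxylases, which make GABA, split, with *Solyc04g025530.3* higher (1.64) and *Solyc01g005000.3* lower (-0.70) in the mutant.

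**Figure D3:**
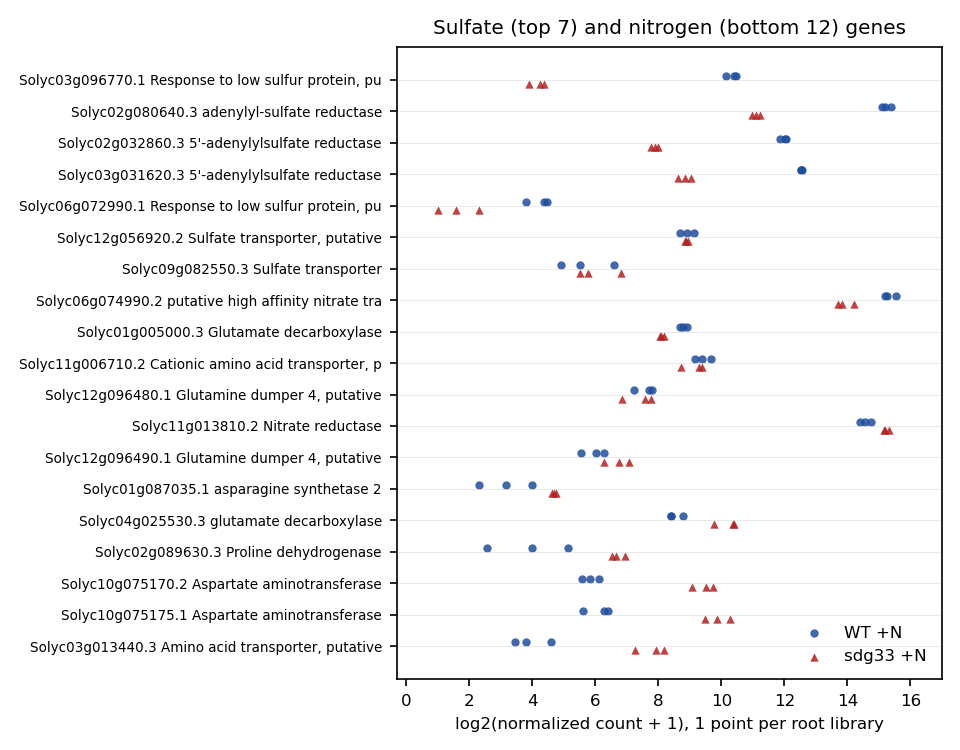
The 7 tested sulfate genes (top rows) and 12 tested nitrogen genes (bottom rows) with log2(normalized count + 1) on the horizontal axis, where each circle is 1 of 3 WT and each triangle 1 of 3 *sdg33* root libraries at +N. The 3 adenylylsulfate reductases and the low-sulfur gene *Solyc03g096770.1* lie far lower in *sdg33*, nitrate reductase lies higher and the nitrate transporter *Solyc06g074990.2* lower.

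Hormone genes changed in both directions, as did the genes tested at large (21.3% higher and 25.1% lower). Among SAUR genes, small early auxin-responsive genes linked to cell expansion, 9 of 28 were tested, of which 4 rose and 3 fell. The adjacent *Solyc11g011670.1* and *Solyc11g011680.1* rose by 4.83 and 4.80, from means of 5.67 and 0.667 to 169 and 40.0. *Solyc05g056430.2* fell from 95.0 to 14.0 (-2.66, SE 0.42). The 3 SAUR-like genes that the study names all fell. The study drew them from genes induced by N in WT and less so in the mutants, in these root libraries. Their fall at +N is therefore no independent evidence. *Solyc01g096340.3* had 372, 421 and 474 in WT and 138, 152 and 151 in *sdg33* (-1.51, SE 0.14). *Solyc01g091030.3* had 207, 312 and 264 against 64, 66 and 104 (-1.75, SE 0.28), and *Solyc07g066560.1* had 170, 172 and 190 against 102, 93 and 102 (-0.83, SE 0.16).

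Of the other auxin genes, 7 of 14 tested rose and 4 fell. Without the 3 from the study's up-regulated root list, among them both genes described next, 4 of 11 rose and 4 fell. *SlPIN5* (*Solyc01g068410.3*), named after an auxin carrier that in Arabidopsis lies at the endoplasmic reticulum, had 125, 154 and 136 in WT and 3436, 4254 and 3232 in *sdg33* (4.70, SE 0.22, adjusted p = 2.97e-09). An auxin canalization gene, *Solyc06g072940.2*, rose from a mean of 12.7 to 345 (4.57). Ethylene genes, with 14 of 23 rising and 2 falling (10 and 2 of 19 without the root list), had a median of 0.80, and their largest rise was that of the 1-aminocyclopropane-1-carboxylate oxidase given above. Of gibberellin, cytokinin and abscisic acid genes, 10 of 23 rose and 4 fell (5 and 4 of 18 without the root list, shares near the 21.3% and 25.1% of all genes). The rising genes of this group named next were all on that root list, so their direction is no independent evidence. Gibberellin 2-oxidases inactivate gibberellins, and *Solyc07g061720.3* had 248, 232 and 212 in WT against 4488, 5102 and 3610 in *sdg33* (4.24, SE 0.20, adjusted p = 2.75e-09). Its neighbour *Solyc07g061730.3* was listed at 0 in each WT library and had a mean of 24.7 in *sdg33*. A two-component response regulator, *Solyc10g079600.2*, of the family that carries cytokinin signals, had 35, 28 and 41 against 499, 508 and 444 (3.78, SE 0.18). Of the abscisic acid genes that passed, *Solyc10g050210.2* and *Solyc04g071600.3* fell by 1.65 and 1.52.

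A few transcription factor genes changed by a great deal. The counts below stand beside 21.3% higher and 25.1% lower over all genes. In these families many of the rising members came from the study's list of up-regulated root genes, so that each count is also given without that list. All rising genes named below were on that list, so their direction is no independent evidence. As the list held up-regulated genes only, leaving it out removes rising and not falling members. The counts without it, here and for the other gene lists, are therefore tilted towards falls. Of 19 bHLH genes tested, 6 rose and 6 fell (1 and 6 of 14 without the list). The bHLH gene *Solyc00g050430.3*, on no assembled chromosome, had 154, 138 and 166 in WT and 16510, 18200 and 13379 in *sdg33*, a rise of 6.70 (SE 0.18, adjusted p = 2.12e-11). *Solyc12g088130.2*, with the same closest Arabidopsis gene, rose from 27, 23 and 26 to 1679, 2141 and 1246 (5.97, SE 0.22). Both passed from low to high with no intermediate library. Of 18 MYB genes, 5 rose and 7 fell (1 and 7 of 14 without the list). *Solyc03g098320.3* rose from a mean of 55.3 to 874 (3.96), and *Solyc10g086250.2* fell from 15.0 to 1.00 (-3.31, SE 0.49). Of 10 NAC and WRKY genes, 5 rose and 1 fell (3 and 1 of 8 without the list). The one that fell was the NAC gene *Solyc08g077110.3*, at 176, 136 and 156 in WT and 9, 13 and 5 in *sdg33* (-4.05, SE 0.31). Of 13 homeobox genes, 6 rose and 3 fell (3 and 3 of 10 without the list), with *Solyc05g006980.3*, a leucine zipper type, at 46, 32 and 43 against 532, 606 and 386 (3.61, SE 0.18). Of 7 LOB domain genes, 3 rose and 2 fell (0 and 2 of 4 without the list), and of those that fell *Solyc01g107190.3* had 4564, 5526 and 5704 against 2270, 2387 and 2384 (-1.16, SE 0.17).

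Phenylpropanoid genes, which lead from phenylalanine to lignin and flavonoids, also split, with 7 of 18 higher and 7 lower (5 and 7 of 16 without the root list). Over all genes the shares were 21.3% higher and 25.1% lower. The genes named here were picked for the size of their change and not for their step. At the entry of the pathway, 3 of the genes named were lower and 1 was higher. Phenylalanine ammonia-lyase (*Solyc10g086180.2*) had 12567, 10710 and 12820 in WT and 4224, 3796 and 3537 in *sdg33* (-1.64, SE 0.10, adjusted p = 1.91e-08). Cinnamate-4-hydroxylase (*Solyc06g082535.1*), the next enzyme, had 9955, 9148 and 10028 against 3646, 3340 and 3488 (-1.48, SE 0.09). 4-coumarate-CoA ligase (*Solyc03g097030.3*) had 262, 292 and 288 against 82, 99 and 72 (-1.73, SE 0.19). A second gene of the hydroxylase step, *Solyc05g047530.3*, did the reverse, at 69, 102 and 100 in WT and 3004, 2716 and 2567 in *sdg33* (4.94, SE 0.23). Chalcone-flavonone isomerase (*Solyc05g052240.3*), of the flavonoid branch, rose from a mean of 14.3 to 82.0 (2.44). Both *Solyc05g047530.3* and *Solyc05g052240.3* were on the root list, so their direction is no independent evidence.

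Chaperone genes rose in 10 and fell in 7 of 35 cases (7 and 7 of 32 without the root list), shares near the 21.3% and 25.1% of all genes. *Solyc07g065970.1*, a DnaJ-type cochaperone, had 47, 72 and 124 in WT and 6704, 7280 and 6098 in *sdg33* (6.46, SE 0.37), and *Solyc04g081530.1* and *Solyc10g086570.3* of the same class rose by 4.46 and 4.28. These rising cochaperone genes were all on the root list, so their direction is no independent evidence. The heat shock factors HsfA6a (*Solyc09g082670.3*) and HsfA6b (*Solyc06g053960.3*), activators of chaperone genes as a class, fell by 2.90 and 2.12. Cell wall genes rose in 9 and fell in 5 of 35 cases (4 and 5 of 30 without the root list), a smaller share in all than the 46.5% of all genes. The largest rises were those of adjacent beta-1,4-xylosidases, enzymes that trim xylan, both on the root list. *Solyc01g107090.2* had 74, 97 and 62 against 2362, 2129 and 2528 (4.92, SE 0.28), and *Solyc01g107100.3* had 490, 502 and 500 against 8046, 8432 and 8432 (4.06, SE 0.20). Pectin lyase-like *Solyc01g079130.2* fell from a mean of 539 to 129 (-2.07).

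In the other lists few members changed, or they changed both ways, beside 21.3% higher and 25.1% lower over all genes. Cytochromes P450 rose in 8 and fell in 10 of 27 cases (3 and 10 of 22 without the root list), with *Solyc07g055460.3* at 25, 4 and 4 in WT and 790, 684 and 630 in *sdg33* (6.33, SE 0.67). The root list held *Solyc07g055460.3* and the thioredoxin gene named below, so their direction is no independent evidence. The 2-oxoglutarate-dependent oxygenases rose in 4 and fell in 8 of 16 cases (1 and 8 of 13 without the root list), from -1.56 to 3.78. Redox proteins of the glutaredoxin, thioredoxin and glutathione S-transferase families rose in 8 and fell in 3 of 14 (3 and 3 of 9 without it), with the thioredoxin *Solyc03g115870.3*, also on the low-oxygen list, at 4.41. Aquaporins and ion transporters rose in 4 and fell in 2 of 12 (1 and 2 of 9 without it), and the tonoplast aquaporin gene *Solyc06g075650.3* fell from 2364, 1983 and 2058 to 440, 562 and 770 (-1.89, SE 0.16). Defence proteins rose in 5 and fell in 5 of 27, and peroxidases rose in 1 and fell in 1 of 11, each a smaller share than that of all genes. Reading frames like those of the plastid genome rose in 3 and fell in 5 of 28.

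The largest changes of all belonged in part to genes without a description. *Solyc07g054750.1* had 0, 0 and 1 normalized counts in WT and 440, 691 and 314 in *sdg33*, with a fitted difference of 8.51. The adjacent *Solyc10g050990.1* and *Solyc10g050980.1* rose by 7.62 and 7.09, the first from 20, 24 and 23 to 5140, 4448 and 4236. On the other side, *Solyc01g104800.2* had 86, 150 and 154 in WT and 0, 1 and 0 in *sdg33* (fitted difference -6.65). *Solyc09g061700.3* went from 370, 435 and 407 to 12, 16 and 17 (-4.67, SE 0.31), and *Solyc08g007080.3* from 1117, 887 and 1195 to 62, 64 and 42 (-4.24, SE 0.17). Of 449 up-regulated DEGs 213 had a description in the lists available, and of 208 down-regulated DEGs 43.

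Some DEGs lay side by side in the gene order of the table. There were 49 runs of at least 2 neighbouring DEGs of 1 direction, holding 111 of the 657 DEGs (16.9%), and 6 runs of at least 3. The longest spanned 8 genes of chromosome 7 from *Solyc07g054745.1* to *Solyc07g054810.1*, which rose by 4.60 to 8.51. One of them, described as wound-responsive (*Solyc07g054780.1*), had 18, 38 and 81 in WT and 2764, 2896 and 2528 in *sdg33*, and *Solyc07g054745.1* was listed at 0 in all 3 WT libraries. A run of 3 genes on chromosome 3, *Solyc03g096760.1* to *Solyc03g096780.1*, fell by between 6.15 and 5.22 around the low-sulfur gene described above, and its member *Solyc03g096780.1* went from 2991, 2742 and 3074 to 58, 66 and 70. Further runs were 4 genes on chromosome 9 starting at a pair described as LUMINIDEPENDENS-type homeobox genes (*Solyc09g074690.3* and *Solyc09g074700.2*, 2.72 and 2.83), 4 genes on chromosome 11 from *Solyc11g005270.1*, 3 genes on chromosome 4 from *Solyc04g076300.3* (of which *Solyc04g076307.1* lost its call under other settings and without single libraries), and 3 on chromosome 10 from *Solyc10g086520.2*, which fell by between 2.36 and 2.12. The number of runs of 3 depended on the filter on low values, with 2 where each library had to reach 10 and 10 with no filter. Overlapping or near-identical neighbours can share reads, and how the counting treated strand and shared reads is not given in the sources used here. By chromosome, the share of tested genes that were up-regulated DEGs was 1.14% (chromosome 11) to 2.92% (chromosome 5), and down-regulated DEGs 0.754% (chromosome 2) to 1.98% (chromosome 10).

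**Figure D4:**
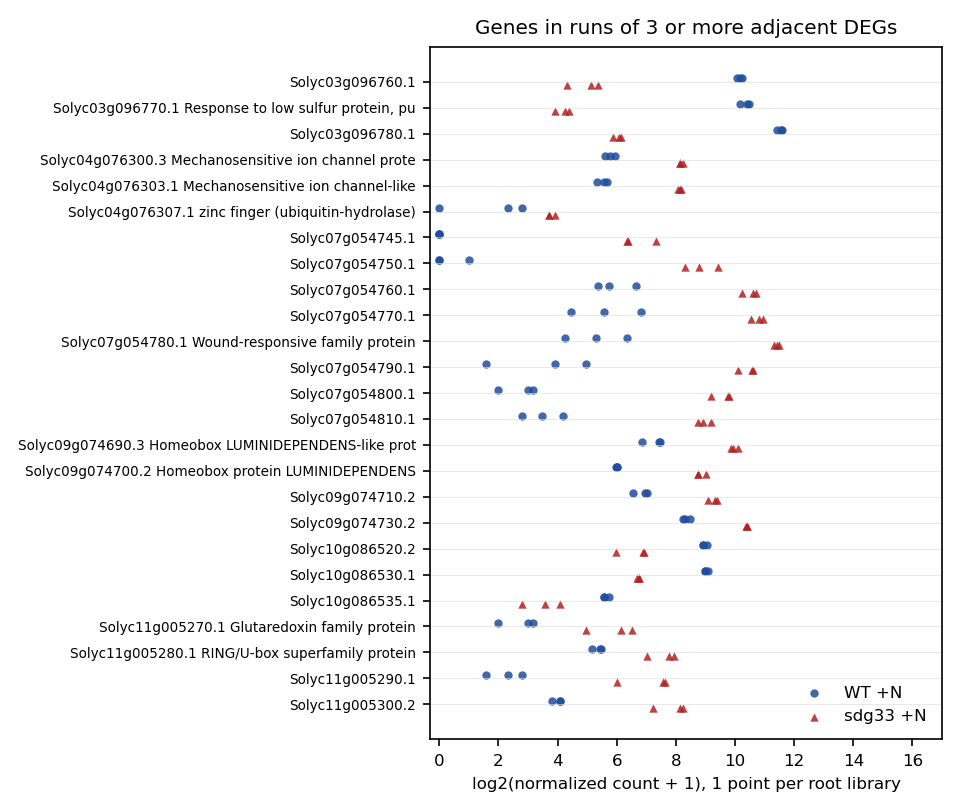
Genes of the 6 runs of at least 3 neighbouring DEGs (rows, in table order) with log2(normalized count + 1) on the horizontal axis, where each circle is 1 of 3 WT and each triangle 1 of 3 *sdg33* root libraries at +N. In the 8 genes of the chromosome 7 run all mutant libraries lie to the right of WT, and in the 3 genes of the chromosome 3 run all lie to the left.

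Of the 104 miRNA loci in the table, 5 were high enough to be tested, and 1 passed. The locus of MIR482e, of a family that targets disease resistance genes, had 20, 30 and 18 in WT and 3, 3 and 6 in *sdg33* (-2.26, SE 0.46, adjusted p = 0.00117). The value comes from RNA-Seq and concerns the locus, not the mature miRNA.

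The same genotypes at -N, in separate libraries, also differed, with fewer DEGs. At -N, 3658 genes (17.9%) were higher and 3608 (17.7%) lower in *sdg33*, with 228 (1.12%) and 116 (0.569%) DEGs. Of the 449 genes up-regulated at +N, 430 had the same sign at -N and 357 passed there in the same direction, with a median of 1.76 against 2.70 at +N. Of the 208 down-regulated genes, 200 had the same sign and 160 passed, with a median of -1.35 against -2.42. Because these genes were chosen for their size at +N, a smaller median at -N is a description. Over all 20391 genes, the differences at +N and -N had a Pearson's r of 0.753 and a Spearman's rho of 0.704, where genes are not independent and share their libraries.

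The genotype difference itself differed between +N and -N in 1633 genes (8.01%), 724 (3.55%) in the positive and 909 (4.46%) in the negative direction. Without WT +N replicate 3 the negative count was 544. Nitrate reductase changed sides. At -N it had 30399, 35396 and 30993 in WT and 5704, 6008 and 4322 in *sdg33*, so that the mutant was lower by -2.60 at -N and higher by 0.66 at +N, a difference between conditions of 3.27 (SE 0.18, adjusted p = 1.42e-06). *NRT1.1* was higher in *sdg33* by 1.37 at -N, where WT had 4793, 5879 and 4678 and the mutant 13986, 12602 and 12820, and the 0.20 at +N did not pass (difference between conditions -1.17, adjusted p = 2.77e-04). For the SAUR-like genes *Solyc01g096340.3* and *Solyc01g091030.3*, the fall was seen at +N and not at -N, where the differences were -0.09 and -0.27 and did not pass (differences between conditions -1.42 and -1.48, both past the test). The third, *Solyc07g066560.1*, changed sides, with 39, 52 and 55 in WT and 74, 82 and 74 in *sdg33* at -N (0.66, adjusted p = 0.00523; difference between conditions -1.49, adjusted p = 0.00136). The study drew *NRT1.1* and these SAUR-like genes from those whose N response depended on genotype in these root libraries. That they passed here is therefore no independent evidence.

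The low-oxygen and sulfate lists kept their direction at -N. Of the 25 low-oxygen genes, 21 rose at -N with a median of 3.12, and 6 had a larger and 2 a smaller log2 difference at +N (3.55% and 4.46% of all genes were more positive and more negative at +N). The study called its root list regardless of N, so -N is no independent evidence for the 15 of them on that list. The cysteine oxidase homolog *Solyc03g113130.3* had 34, 40 and 50 against 1008, 1572 and 1795 at -N, a difference of 5.08, or 1.94 less than at +N (adjusted p = 0.00178). The hemoglobin gene went the other way, with 3.83 at -N and 2.08 at +N. Of the sulfate genes, 5 fell at -N with a median of -3.15, under a medium that held more sulfate. *Solyc02g080640.3* had 10866, 5972 and 9464 against 632, 704 and 942 there (-3.50). Among genes with a description, the small heat shock protein *Solyc05g014280.3* differed the most between conditions (4.80, SE 0.75), with 592, 97 and 379 in *sdg33* at +N, 15, 24 and 10 at -N, and between 18 and 44 in all 6 WT libraries.

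**Figure D5:**
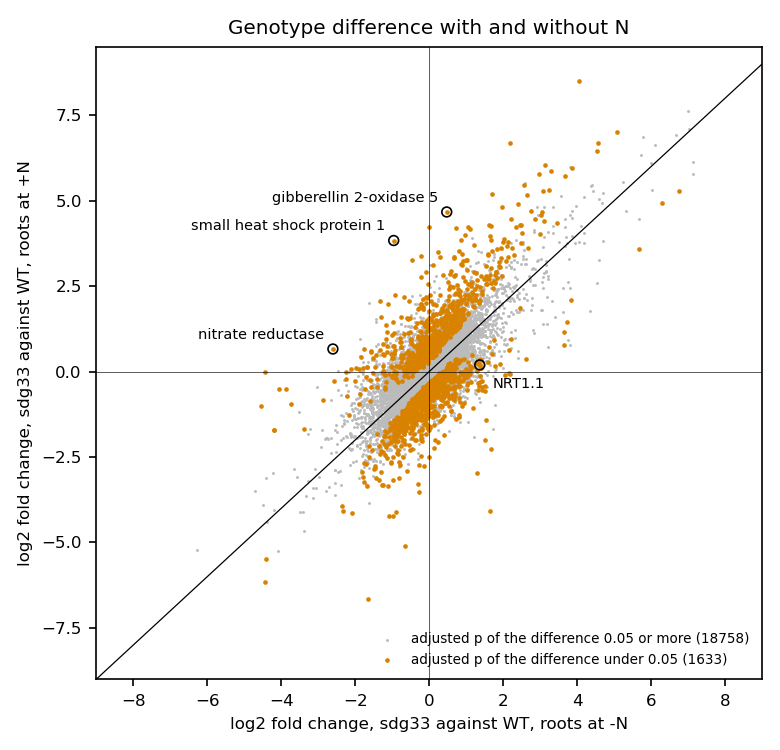
log2(*sdg33*/WT) at -N (horizontal axis) against +N (vertical axis) in roots for the 20391 genes tested, from separate sets of 3 libraries per group. The 1633 genes whose difference itself differed between conditions are coloured. Most genes lie along the diagonal, while nitrate reductase (-2.60 at -N, 0.66 at +N) and *NRT1.1* (1.37 at -N, 0.20 at +N) lie off it.

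The second mutant, *sdg34*, was close to *sdg33* in these roots. Both comparisons share the 3 WT libraries, so values stand side by side only. In *sdg34* at +N, 4476 genes (21.9%) were higher and 5486 (26.8%) lower than in WT, with 482 (2.36%) and 211 (1.03%) DEGs, and the DEGs of *sdg33* had medians of 2.75 and -2.32. As those DEGs were chosen for their size against the same WT libraries, these medians are a description. The low-oxygen list had 21 genes higher and a median of 3.36, and the sulfate list 5 lower and a median of -3.26. *Solyc03g113130.3* had 3617, 3721 and 4224 in *sdg34* (7.25), and *Solyc02g080640.3* had 3039, 3220 and 2528 (-3.71). Compared with each other, the mutants differed in 142 of 20670 genes (0.687%), 70 higher (0.339%) and 72 lower (0.348%) in *sdg33*. By limma, 0 of the low-oxygen, 0 of the nitrogen and 0 of the sulfate genes differed between the mutants at an adjusted p under 0.05, and 5, 3 and 2 did at an unadjusted p under 0.05. The count over all genes rested on single libraries, and was 306 and 399 without *sdg34* replicate 3, 44 and 36 without *sdg34* replicate 2, 5 and 10 without *sdg34* replicate 1, and 3 and 10 without *sdg33* replicate 3. A few genes stood out. The homeobox gene *Solyc06g035940.3* had 3704, 2636 and 532 in *sdg34*, 4, 3 and 1 in *sdg33* and 10, 5 and 3 in WT. The cysteine-rich gene *Solyc08g066290.3* had 252, 250 and 301 in *sdg34*, 78, 90 and 70 in *sdg33* and 54, 52 and 62 in WT (difference between the mutants -1.74, SE 0.18, adjusted p = 2.04e-04). The ethylene-responsive factor *Solyc06g009810.3* was higher in *sdg33* than in *sdg34*, at 26, 15 and 44 against 1, 0 and 0 in *sdg34* and 0, 2 and 0 in WT (4.42, SE 0.56, adjusted p = 0.00223).

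Between roots and shoots at +N, the genotype difference itself differed in 7692 genes (34.2%). It was more positive in roots in 3409 genes (15.2%) and more negative in 4283 (19.1%) of 22468. Within shoots, 20.8% of genes were higher and 18.3% lower in *sdg33*. Of the 449 up-regulated root DEGs, 360 were tested in shoots, where 173 rose and 45 fell, and 298 of the 449 had a larger difference in roots. As these genes were chosen for their size in the same root libraries, that count is a description. Of the 208 down-regulated DEGs, 141 were tested in shoots, where 68 fell and 4 rose. In the low-oxygen list, 16 genes had a more positive and 4 a more negative difference in roots. The cysteine oxidase homolog *Solyc03g113130.3*, for instance, had 6, 6 and 11 in WT shoots and 12, 10 and 10 in *sdg33* shoots (difference between organs 6.55, SE 0.77), and the ethylene response factor *Solyc09g075420.3* had means of 726 and 1029 there (difference between organs 3.86). The glutaminase domain gene *Solyc03g006490.3* on the same list rose more in shoots, from a mean of 28.3 to 7596 (8.11, against 4.48 in roots). Within shoots, 13 of the 21 low-oxygen genes tested there rose in *sdg33* and 3 fell, beside 20.8% and 18.3% of all genes. Many genes of this list came from the study's lists of genes called in shoots, so their change there is no independent evidence. For *Solyc02g080640.3*, the adenylylsulfate reductase, shoots had means of 17844 and 13232, and the difference was -4.12 in roots and -0.43 in shoots. Of the 7 sulfate genes tested in shoots, 3 fell and 1 rose in *sdg33* there. Nitrate reductase was lower in *sdg33* shoots, at 19322, 17744 and 17510 against 35396, 27322 and 35724 in WT (-0.84), where roots had 0.66.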

How the data were processed

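Roots and shoots of WT, *sdg33* and *sdg34* at +N and -N were sequenced as paired-end RNA-Seq, in 36 libraries. According to the study's methods, reads were aligned with BBmap to the tomato genome, counted with featureCounts and tested with DESeq2 by the authors. The deposited values are recorded here as a score: they are whole numbers left after full-quantile normalization of gene counts by the authors, with every library holding 1 common set of values. A table lists 35768 gene models and 104 miRNA loci. Depth is unknown, and precision rests on 3 libraries per group.

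After adding 1 and taking log2, genes that reached 10 in 3 or more of the fitted libraries were tested with limma 3.58.1 (R 4.3.3; lmFit, then eBayes with a variance trend). The 12 root libraries of WT and *sdg33* gave the differences at +N and -N and between these, 18 root libraries the difference between mutants, and 24 libraries that between organs. P-values were adjusted by Benjamini-Hochberg, with a threshold of 0.05. An exact two-sided permutation test of 3 against 3 cannot go below 0.1 and was not used.

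Groups came from the deposited labels. The members and gene lists were chosen with earlier results of these data known. Descriptions and closest Arabidopsis genes came from the study's gene lists of shoots and roots, so that genes described are those that passed the study's own tests. Named genes were those the study names, the 10 largest changes in each direction without overlap, up to 3 per direction and list, all low-oxygen, nitrogen and sulfate genes, the 5 largest described differences per direction of the other contrasts, miRNA loci that passed, and runs of at least 3 DEGs. Other genes named were neighbours in these runs. Alternatives were other filters, pseudocounts of 0.5 and 10, 6 or 18 libraries, median-of-ratios rescaling, no variance trend, a replicate block, a lower fold cut-off and each library left out. Steps were tested on simulated data. Sequences and coordinates were not used here.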

Additional observations from a re-analysis of the deposited data

Results flagged for a closer look

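Each result here had a genotype difference that itself differed between conditions or organs at an adjusted p under 0.05 in limma. No cause was tested. The genotype difference was more positive at +N than at -N in 724 genes (3.55%) and more negative in 909 (4.46%). It was more positive in roots than in shoots in 3409 genes (15.2%) and more negative in 4283 (19.1%). The counts below stand beside these shares. Among the 25 tested low-oxygen genes, 6 were more positive and 2 more negative at +N, and 16 were more positive and 4 more negative in roots. Among the 7 tested sulfate genes, 1 was more negative at +N, and 1 was more positive and 6 more negative in roots. Among the 12 tested nitrogen genes, 4 were more positive at +N, and 5 were more positive and 4 more negative in roots.

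Genes more positive at +N, with the difference between conditions on the log2 scale, were the small heat shock protein *Solyc05g014280.3* (4.80), gibberellin 2-oxidase *Solyc07g061730.3* (4.20), *Solyc05g052890.3*, described as cytochrome f (3.48), nitrate reductase (3.27) and the SAUR gene *Solyc10g054720.1* (3.16). Of these, *Solyc07g061730.3* and *Solyc10g054720.1* were listed at 0 in all WT libraries at +N. Those more negative were *Solyc04g055130.1*, a C2 domain gene (-2.27), the cytochrome P450 gene *Solyc01g094130.2* (-2.24), the EF-hand gene *Solyc03g031630.3* (-2.09), the zinc finger gene *Solyc09g074780.3* (-2.07), the glycosyltransferase *Solyc04g016200.1* (-2.05), *NRT1.1* (-1.17) and the SAUR-like *Solyc01g096340.3* (-1.42), *Solyc01g091030.3* (-1.48) and *Solyc07g066560.1* (-1.49). *NRT1.1* and these SAUR-like genes were chosen by the study for such a difference in the same libraries. The call of *Solyc03g031630.3* was lost with median-of-ratios rescaling (adjusted p = 0.051), with no filter (0.0856), with no variance trend (0.0908) and without any 1 library other than WT -N replicate 1 (0.061 to 0.102). That of *Solyc04g016200.1* was lost with no filter (0.0789), with no variance trend (0.0846) and without any 1 library (0.0642 to 0.0973) other than WT -N replicate 1, *sdg33* -N replicate 1 and *sdg33* +N replicates 1 and 2. That of *Solyc10g054720.1* was lost without WT -N replicate 2 or 3, any WT +N library or *sdg33* -N replicate 1 (0.0535 to 0.0691), and that of *Solyc04g055130.1* with a pseudocount of 10 (0.0879).

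Between organs, the genotype difference was more positive in roots for the B-box gene *Solyc11g068390.1* (8.10), which was at 0 in all +N root libraries and differed in shoots only, the PHD finger gene *Solyc06g082040.2* (8.03), chlorophyllase *Solyc09g082600.2* (7.72), cytochrome b5 *Solyc04g078140.3* (7.21) and the Nudix hydrolase *Solyc01g005390.3* (6.78). It was more negative in roots for *Solyc06g066420.3*, described as oxidative stress 3 (-8.11), the ethylene-responsive factor *Solyc09g089930.2* (-7.72), the acyltransferase *Solyc05g052670.1* (-6.94), the inhibitor-type *Solyc08g079230.1* (-6.50) and *Solyc02g067050.3* (-6.28). These values are differences between organs and not the size of a change in roots. In roots *Solyc06g082040.2* was an up-regulated and *Solyc05g052670.1* a down-regulated DEG. By contrast, *Solyc08g079230.1* differed by only -0.58 in roots, and its call there was lost with no filter (adjusted p = 0.0715).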

How the results depend on the processing

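Up- and down-regulated DEGs numbered 272 and 106 where each library had to reach 10, 292 and 96 with a pseudocount of 10, and 1403 and 1367 with a cut-off of 1. With no variance trend, 593 genes were more negative at +N than at -N, and the mutants differed in 29 and 25 genes. With no filter 45 genes were lower in *sdg33* than in *sdg34*. Of the low-oxygen genes 6 and of the nitrogen genes 5 rose once genes of the study's root list were left out, a choice made after the data had been examined, and 5 nitrogen genes rose where each library had to reach 10. Runs of at least 3 DEGs numbered 10 with 18 libraries or no filter and 2 where each library had to reach 10. The difference of *Solyc03g031630.3* between +N and -N turned to 0.30 (adjusted p = 0.545) with a pseudocount of 10. As depth is unknown, the sampling error of low genes could not be assessed.

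Leaving out each library in turn gave 418 to 470 and 199 to 232 DEGs, 3668 to 3919 and 4397 to 4592 genes past the adjusted p, 497 to 692 and 544 to 868 between +N and -N, 3 to 306 and 10 to 399 between the mutants, 2903 to 3487 and 3688 to 4246 between organs, 21 to 22 low-oxygen, 4 to 5 sulfate and 7 to 8 nitrogen genes, 5 to 8 runs, -0.38 to -0.27 for *SDG33* and -2.53 to -2.05 for MIR482e. Deviations from the group mean in same-numbered *sdg33* and WT libraries had an r of 0.046, 0.009 and 0.048. No shared deviation by number was seen, which cannot exclude a pairing. A replicate block gave 450 and 208 DEGs and -0.32 for *SDG33* (adjusted p = 0.00741). Of 1929 values of named genes under other settings 1896 kept their direction and side of the threshold, 28 lost the threshold, 4 gained it and 1 reversed. Of 1484 with 1 library left out, 1394 kept both, 89 lost the threshold and 1 gained it.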
